A study of Mus musculus with 6 samples.

Results

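The genes described here encode subunits of the Polycomb repressive complexes PRC1 and PRC2, and their expression was compared between retinal ganglion cells (RGCs) of E18 and P5 mice. They were chosen by symbol, as the rows of the count table for Ezh1, Ezh2, Eed, Suz12, Jarid2, Cbx2, Cbx7, Bmi1 and Rnf2, with no threshold on any measured value. These are 9 of the 24060 genes in the table, and all 9 had enough reads to be tested.

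RGCs are the neurons whose axons form the optic nerve, and they were purified from C57BL/6 retinas, with no treatment or mutant allele named, at embryonic day 18 (E18, replicates 1, 3 and 4) and postnatal day 5 (P5, replicates 6, 8 and 9). Retinas were dissociated with papain, macrophages were removed with antibodies, and RGCs were then collected by immunopanning, in which cells bind to a dish coated with an antibody, here against CD90 (Thy1). Nothing states whether samples of one age came from separate animals or litters, so the p-values measure the spread between these samples, which may be technical. In the count table the name for E18 replicate 1 includes the numbers 2 and 5 as well, so that it may pool several preparations, and the labels name polyA RNA where the protocol names depletion of ribosomal RNA.

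Polycomb proteins keep genes silent by modifying histones. PRC2 methylates lysine 27 of histone H3 through either of the alternative enzymes EZH1 and EZH2, which need the core subunits EED and SUZ12, while JARID2 is an accessory subunit that helps to bring the complex to its targets. PRC1 contains an E3 ligase, RNF2 (RING1B) or its relative RING1, that attaches ubiquitin to histone H2A, together with a PCGF subunit such as BMI1, and canonical PRC1 contains a CBX protein that binds the mark left by PRC2. In many tissues EZH2 is the form of dividing progenitors and EZH1 the form that persists in cells that no longer divide, and transcription of Ezh2 is known to be driven by E2F factors.

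The stretches around the start sites of Ezh2 and Ezh1 are shown because these alternative enzymes moved in opposite directions between the ages, and those of Suz12 because it was the other member with an E2F word. They are from RefSeq on GRCm38.p6, and positions are counted from the start site, with the first transcribed base as 1 and no 0. Capitals mark CCAAT, or ATTGG where it was read on the other strand, and E2F words. The Ezh2 stretch is chr6:47595016-47595125 on the minus strand (positions -95 to 15), and that of Ezh1 is chr11:101226449-101226558 on the minus strand (positions -95 to 15). The Suz12 stretches are chr11:79992876-79992925 (positions -230 to -181) and chr11:79993036-79993085 (positions -70 to -21) on the plus strand.
Ezh2: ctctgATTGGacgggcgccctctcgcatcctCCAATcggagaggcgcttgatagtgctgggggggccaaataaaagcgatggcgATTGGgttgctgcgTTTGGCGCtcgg
Ezh1: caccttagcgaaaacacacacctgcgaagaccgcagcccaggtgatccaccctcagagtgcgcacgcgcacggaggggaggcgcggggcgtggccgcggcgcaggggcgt
Suz12, distal: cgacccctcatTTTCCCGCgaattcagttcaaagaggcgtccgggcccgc
Suz12, proximal: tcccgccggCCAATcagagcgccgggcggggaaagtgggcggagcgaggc

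Promoter entries of 300 bases (250 before and 50 after the start) were found for 8 of the 9 members and not for Cbx2. There were 9 entries, as Jarid2 had more than 1, each with a CCAAT box. Some start sites lay inside the gene spans given below. That of Cbx7 was at 79932646 on the minus strand, where the span ends at 79971119. Other starts of these genes were not searched, so the matches hold only for the starts of these entries. Both strands were searched for the E2F words TTTGGCGC, TTTCCCGC, TTTGCCGC and TTTCGCGC, for CCAAT, for the ETS words CCGGAAGC, CCGGAAGT, GCGGAAGC and GCGGAAGT, and for the CHR words TTTGAA and TTCGAA. An E2F word was present in Ezh2, at positions 4 to 11, and in Suz12, at positions -219 to -212, and 2.26% of all 32851 promoters of this length held one. Ezh2 also held 3 CCAAT boxes, at -90 to -86, -64 to -60 and -11 to -7, as many or more of which were present in 3.37% of all promoters. Suz12, Eed, Jarid2 and Cbx7 held a CCAAT box, a word found in 37.4% of all promoters, and Suz12, Eed and Cbx7 held a CHR word, found in 19.2%. None of the words was present in the windows of Ezh1, Bmi1 or Rnf2, and no member held an ETS word, which 8.95% of all promoters did. These are matches of letters only.

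Most of the Polycomb genes were expressed at higher levels at E18 than at P5, and Ezh1 was expressed at a higher level at P5. Of the 9 members, 6 were higher at E18 (Ezh2, Cbx2, Rnf2, Bmi1, Jarid2 and Eed), against 20.8% of all 16449 genes tested, and 1 was lower (Ezh1), against 22.5%. That made 7 of 9 members called, by edgeR's quasi-likelihood test with Benjamini-Hochberg adjustment over all genes tested and a threshold of 0.05, where 43.4% of all genes tested were called. The count fell to 3 of 9 without E18 replicate 3, where 27.3% of all genes tested were called, and to 4 of 9 without P5 replicate 6, where 33.4% were. The E18 and P5 samples did not overlap for 8 of the 9, against 56.1% of all genes tested. The median log2 fold change of E18 over P5 was 0.46 over the members and 0.0047 over all genes tested. Values are given as CPM, read counts divided by library size after TMM scaling.

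**Figure D1:**
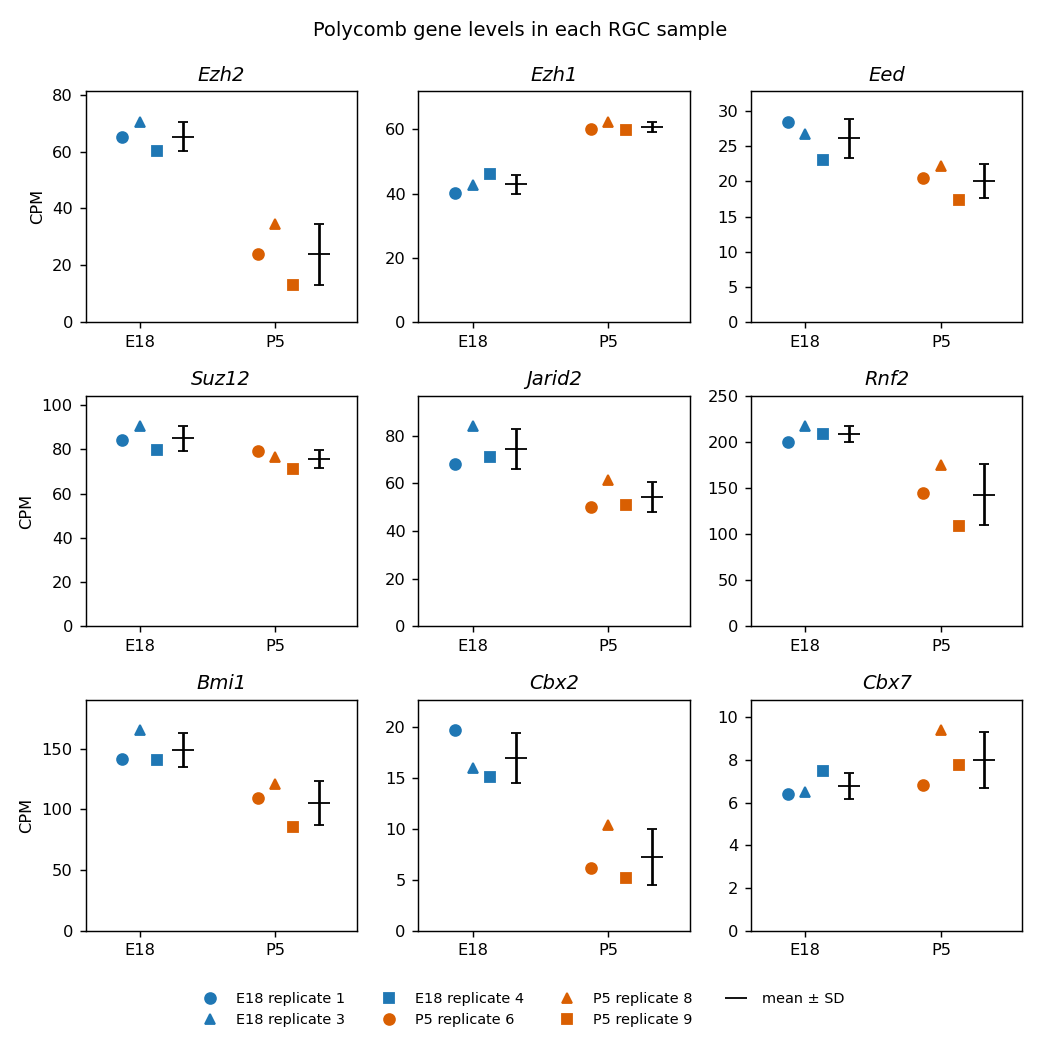
Level of each Polycomb gene in CPM (linear axis from 0) in every sample, with E18 replicates 1, 3 and 4 in blue and P5 replicates 6, 8 and 9 in orange. Black bars are the mean ± SD of 3 samples. The ages overlap only for Cbx7, and Ezh1 is the one member with every P5 sample above every E18 sample.

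Ezh2, a catalytic subunit of PRC2 (chromosome 6, 47530139 to 47595341, minus strand, mm10), had the largest change of the members. It was measured at 65.2, 70.6 and 60.2 CPM in E18 replicates 1, 3 and 4 and at 23.9, 34.6 and 13.2 CPM in P5 replicates 6, 8 and 9. All E18 samples lay far above all P5 samples, and the P5 samples differed more among themselves, by 2.63-fold from lowest to highest, than the E18 samples, by 1.17-fold. The means were 65.3 ± 5.19 and 23.9 ± 10.7 CPM (SD, n = 3 each), with a log2 fold change of 1.45 (SE 0.287, 95% interval 0.80 to 2.10, adjusted p = 0.00461). Of all genes tested, 9.37% changed by more than Ezh2 in either direction. Ezh2 was called in all 13 alternative fits, with log2 fold changes from 1.16 without P5 replicate 9 to 1.80 without P5 replicate 8.

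Ezh1, the other catalytic subunit (chromosome 11, 101191115 to 101226463, minus strand), moved the other way. Its levels were 40.1, 42.6 and 46.0 CPM in E18 replicates 1, 3 and 4 and 60.1, 62.5 and 59.7 CPM in P5 replicates 6, 8 and 9. Every P5 sample lay above every E18 sample, and the P5 samples were close together. The log2 fold change was -0.50 (SE 0.0909, 95% interval -0.71 to -0.30, adjusted p = 0.00310), from means of 42.9 ± 2.97 CPM at E18 and 60.8 ± 1.48 CPM at P5 (SD, n = 3 each). The call held in all 13 alternative fits. The change was moderate for this comparison, as 40.3% of all genes tested changed by more.

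Eed, the core subunit that binds the methylated histone (chromosome 7, 89954654 to 89980983, minus strand), was measured at 28.5, 26.8 and 23.1 CPM at E18 and at 20.5, 22.2 and 17.4 CPM at P5, in the same order of replicates. The lowest E18 sample was just above the highest P5 sample. The log2 fold change was 0.38 (SE 0.131, adjusted p = 0.0420), from means of 26.1 ± 2.78 and 20.02 ± 2.43 CPM (SD, n = 3 each). This call was lost in 5 of the 13 alternatives, with adjusted p = 0.152 without E18 replicate 1, 0.120 without E18 replicate 3, 0.0964 without P5 replicate 6, 0.118 without P5 replicate 9 and 0.0615 with scaling by library totals only.

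Suz12, the core subunit that holds PRC2 together (chromosome 11, 79993106 to 80034123, plus strand), was measured at 84.4, 90.7 and 79.8 CPM at E18 and at 79.4, 76.6 and 71.2 CPM at P5. The ages did not overlap, but E18 replicate 4 and P5 replicate 6 were almost equal. The log2 fold change of 0.17 (SE 0.0914) did not pass the test (adjusted p = 0.172), with an interval from -0.04 to 0.37. Suz12 was not called in any alternative.

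Jarid2, the accessory subunit (chromosome 13, 44729474 to 44921643, plus strand), had 68.1, 84.2 and 71.0 CPM at E18 and 49.99, 61.5 and 51.1 CPM at P5. Each E18 sample was above each P5 sample, with E18 replicate 3 and P5 replicate 8 the highest of their ages. The log2 fold change was 0.46 (SE 0.121, adjusted p = 0.0158), from 74.5 ± 8.58 to 54.2 ± 6.38 CPM (SD, n = 3 each). The call was lost without E18 replicate 3 (adjusted p = 0.0740), without P5 replicate 6 (0.0611) and without P5 replicate 9 (0.0501).

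**Figure D2:**
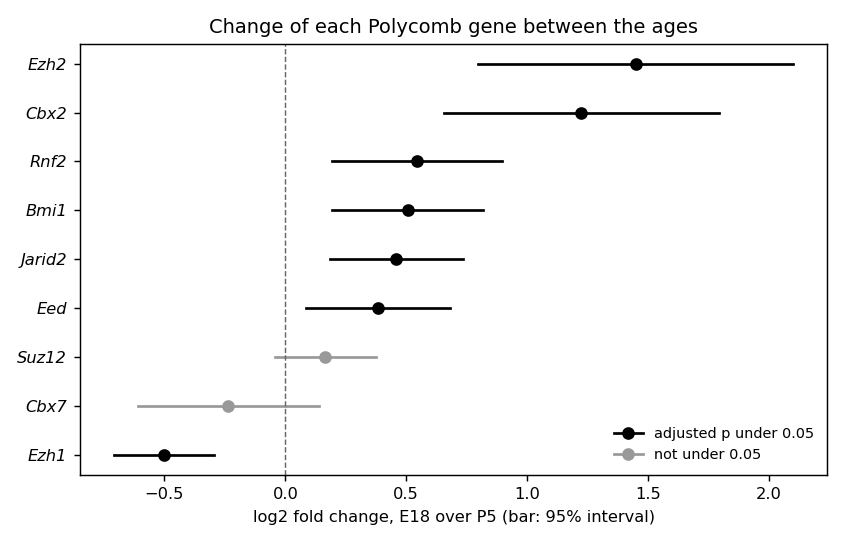
Log2 fold change of E18 over P5 for each member (horizontal axis), with its 95% interval from edgeR's quasi-likelihood fit over 3 samples of each age. Black marks an adjusted p under 0.05 and grey the others. Ezh2 (1.45) and Cbx2 (1.22) stand apart from the other rises of 0.38 to 0.55, and Ezh1 (-0.50) is on the other side of 0.

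In PRC1, Rnf2 and Bmi1 were higher at E18. Rnf2, the E3 ligase (chromosome 1, 151458004 to 151500955, minus strand), was measured at 200.4, 218 and 209 CPM at E18 and at 145, 175 and 109 CPM at P5. The E18 samples were close together and all above the widely spread P5 samples. Its log2 fold change was 0.55 (SE 0.155, adjusted p = 0.0210), from 209 ± 8.87 to 143 ± 33.0 CPM (SD, n = 3 each). The call was lost without E18 replicate 3 (adjusted p = 0.0673) and without P5 replicate 6 (0.0662).

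Bmi1, the PCGF subunit that partners the ligase (chromosome 2, 18677018 to 18686629, plus strand), had 142, 166 and 141 CPM at E18 and 109, 121 and 85.1 CPM at P5. Again no P5 sample reached the lowest E18 sample. The log2 fold change was 0.51 (SE 0.137, adjusted p = 0.0176), from 149 ± 14.1 to 105 ± 18.38 CPM (SD, n = 3 each), and the call was lost only without E18 replicate 3 (adjusted p = 0.0711).

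Cbx2 and Cbx7 encode alternative CBX readers of the PRC2 mark. Cbx2 (chromosome 11, 119022962 to 119031270, plus strand) was measured at 19.7, 16.0 and 15.1 CPM at E18 and at 6.11, 10.4 and 5.20 CPM at P5. The lowest E18 sample was well above P5 replicate 8, which was the highest of the P5 samples by a wide margin. The log2 fold change was 1.22 (SE 0.250, 95% interval 0.66 to 1.79, adjusted p = 0.00529), from 16.9 ± 2.44 to 7.24 ± 2.78 CPM (SD, n = 3 each), and 12.7% of all genes tested changed by more. Cbx2 was called in all 13 alternatives, with log2 fold changes of 1.03 to 1.56.

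Cbx7 (chromosome 15, 79915807 to 79971119, minus strand) had 6.39, 6.49 and 7.51 CPM at E18 and 6.82, 9.42 and 7.77 CPM at P5. The ages overlapped, with P5 replicate 6 inside the E18 range. Its log2 fold change of -0.24 (SE 0.165, 95% interval -0.61 to 0.14) did not pass the test (adjusted p = 0.274), nor did it in any alternative.

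To compare levels between genes, CPM was divided by the length of each gene's merged exons. On this scale of CPM per kb, Rnf2 led at E18 with 50.7 ± 2.15 (SD, n = 3), followed by Bmi1 with 37.6 ± 3.54 and Suz12 with 17.2 ± 1.11. Ezh2 came next with 9.78 ± 0.778 CPM per kb, then Jarid2 (7.66 ± 0.883), Eed (6.82 ± 0.726), Ezh1 (5.76 ± 0.399), Cbx2 (3.98 ± 0.573) and Cbx7 (1.05 ± 0.0955). The samples of Jarid2 and Eed overlapped, as did those of Eed and Ezh1, and the other neighbours did not.

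At P5 the order was the same at the top and the bottom, and Ezh1 stood above Ezh2. Rnf2 (34.7 ± 8.01 CPM per kb, SD, n = 3), Bmi1 (26.5 ± 4.62) and Suz12 (15.3 ± 0.840) were followed by Ezh1 (8.17 ± 0.199), Jarid2 (5.58 ± 0.657), Eed (5.23 ± 0.635), Ezh2 (3.58 ± 1.61), Cbx2 (1.70 ± 0.653) and Cbx7 (1.23 ± 0.202). With merged exons Ezh2 went from rank 4 to rank 7 and Ezh1 from rank 7 to rank 4, with the longest transcripts from rank 3 to 6 and from 6 to 4, and with the RefSeq-matched transcripts from 3 to 7 and from 7 to 4. At this age the samples overlapped between Rnf2 and Bmi1 and between all neighbours from Jarid2 down to Cbx7. Which transcripts the RGCs used is not known from gene counts, so these levels carry the uncertainty of the lengths.

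The ratio of Ezh2 to Ezh1 within each sample does not depend on the scaling of the libraries. In CPM per kb it was 1.81, 1.85 and 1.46 in E18 replicates 1, 3 and 4 and 0.444, 0.618 and 0.246 in P5 replicates 6, 8 and 9. Ezh2 exceeded Ezh1 in every E18 sample and fell short of it in every P5 sample. The geometric means were 1.70 and 0.407, a 4.17-fold difference (2.06 on the log2 scale) with p = 0.1 by a two-sided exact permutation test, the smallest p that 3 samples against 3 can give. Other choices of length (none, the longest transcript, or the transcript matched to the RefSeq identifier) kept every E18 ratio above 1, from 1.31 to 2.504, and every P5 ratio below 1, from 0.221 to 0.837.

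The ratio of Cbx2 to Cbx7 in CPM per kb was 4.70, 3.75 and 3.07 at E18 and 1.37, 1.68 and 1.02 at P5. The lowest E18 ratio was above the highest P5 ratio. The geometric means of 3.78 and 1.33 differed 2.85-fold (1.51 on the log2 scale), again with the smallest possible p of 0.1 in the two-sided exact permutation test. Cbx2 exceeded Cbx7 in every E18 sample under each length tried, with ratios of 1.53 or more. Whether it did so at P5 depended on the length, as the ratios were 0.669 to 1.11 without length scaling and 0.509 to 0.841 with the RefSeq-matched transcripts.

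**Figure D3:**
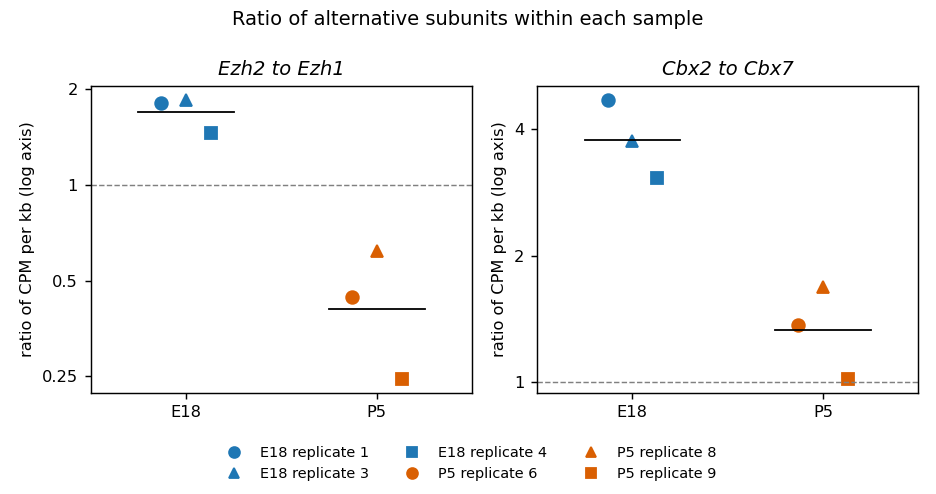
Ratio of Ezh2 to Ezh1 (left) and of Cbx2 to Cbx7 (right) in CPM per kb of merged exons, in each sample, on log axes. Horizontal lines are geometric means of 3 samples and the dashed line is a ratio of 1. Ezh2 to Ezh1 is between 1.46 and 1.85 at E18 and between 0.246 and 0.618 at P5.

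Samples were checked for RGCs and for other cells by marker lists. For comparison with the counts in each list, 20.8% of all genes tested were higher at E18 and 22.5% lower. The list of 15 RGC markers held 4 genes called higher at E18 and 5 called lower, with log2 fold changes from -1.89 to 1.10 and a median of -0.05. The RGC markers summed to 9416 to 11124 CPM at E18 and 9683 to 10767 CPM at P5. Without the most abundant marker, the other 14 summed to 7743, 8135 and 8990 CPM in E18 replicates 1, 3 and 4. In P5 replicates 6, 8 and 9 they summed to 7386, 7322 and 7305 CPM, below every E18 sample. Rbpms, which marks RGCs, was at 293 ± 23.7 and 315 ± 21.5 CPM (SD, n = 3 each). Thy1, the protein used for panning, was lower at E18 (247 ± 56.2 against 553 ± 119.7 CPM, SD, n = 3 each, log2 fold change -1.16, adjusted p = 0.00197). In bulk samples such as these, fewer cells of a type and less RNA per cell cannot be told apart. The deposited counts summed to between 81213639 and 114512853 per sample, so that 1 CPM corresponded to 82.95 to 112.1 reads.

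Dividing cells and progenitors also differed between the ages, and they did so unevenly. Of 14 markers of dividing cells, 10 were higher at E18 and none lower, and their summed level was 371, 154 and 98.9 CPM in E18 replicates 1, 3 and 4 and 81.9, 94.6 and 74.5 CPM in P5 replicates 6, 8 and 9. Of 12 progenitor markers, 7 were higher and none lower, with sums of 305, 156 and 44.4 CPM at E18 and 32.9, 39.0 and 25.7 CPM at P5. The shares of all genes tested were 20.8% higher and 22.5% lower. E18 replicate 1 thus carried the most of both and E18 replicate 4 little more than the P5 samples. Without Pcna, the most abundant, the other 13 dividing cell markers summed to 300.8, 101.8 and 51.7 CPM in E18 replicates 1, 3 and 4. In P5 replicates 6, 8 and 9 they summed to 43.65, 55.2 and 38.05 CPM, which put P5 replicate 8 above E18 replicate 4. Progenitor markers without their most abundant gene summed to 159, 122 and 30.2 CPM at E18 and 24.0, 28.2 and 20.2 CPM at P5.

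Among the E18 samples, Cbx2 and Eed fell in the order of these sums, and Ezh2, Rnf2, Bmi1, Jarid2, Suz12, Ezh1 and Cbx7 did not. Among the P5 samples both sums fell from replicate 8 to 6 to 9. Ezh1, Ezh2, Eed, Cbx2, Bmi1 and Rnf2 fell in that order too, as did 22.2% of all genes tested. Suz12, Jarid2 and Cbx7 did not. Mki67, a protein of dividing cells, was at 68.7, 16.2 and 2.84 CPM in E18 replicates 1, 3 and 4, where Ezh2 was at 65.2, 70.6 and 60.2 CPM. E18 replicate 4 and P5 replicate 8 had similar sums of dividing cell markers, 98.9 and 94.6 CPM, or 51.7 and 55.2 CPM without Pcna. Single markers of that list differed between them, with Mki67 at 2.84 and 4.17 CPM and Pcna at 47.2 and 39.5 CPM. In these samples Ezh2 was at 60.2 and 34.6 CPM, Cbx2 at 15.1 and 10.4 CPM and Rnf2 at 209 and 175 CPM. Bmi1 was at 141 and 121 CPM and Jarid2 at 71.0 and 61.5 CPM, while Eed was almost equal at 23.1 and 22.2 CPM. The part of dividing cells in the differences of the Polycomb genes was not tested. Without E18 replicate 1, the log2 fold change was 1.46 for Ezh2 (adjusted p = 0.0118), 1.11 for Cbx2 (0.0190), 0.58 for Rnf2 (0.0400), 0.55 for Bmi1 (0.0338) and 0.52 for Jarid2 (0.0251), and Eed was not called (0.32, adjusted p = 0.152).

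**Figure D4:**
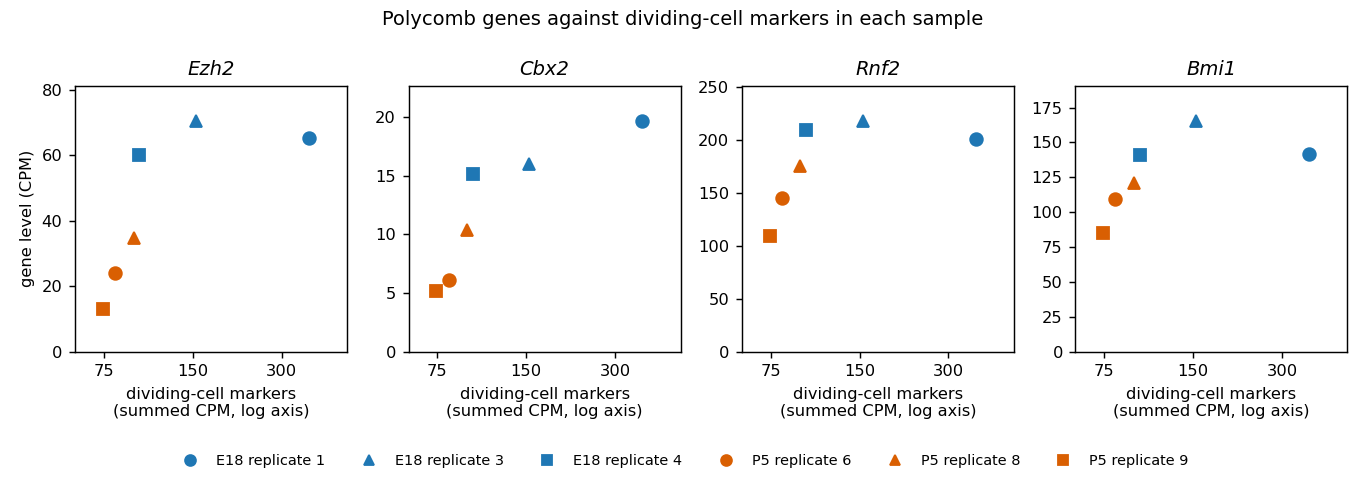
Level of Ezh2, Cbx2, Rnf2 and Bmi1 in CPM (vertical, linear axis from 0) against the summed CPM of 14 dividing cell markers (horizontal, log axis), 1 point per sample. The E18 samples span sums of 98.9 to 371 with Ezh2 between 60.2 and 70.6, and the P5 samples span 74.5 to 94.6 with Ezh2 between 13.2 and 34.6. Without Pcna, the sum is 51.7 in E18 replicate 4 and 55.2 in P5 replicate 8.

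Other cell types were measured in the same way, and no marker was at 0 in all 6 samples. Amacrine cell markers summed to 639 to 961 CPM at E18 and 528 to 654 CPM at P5. Of these 11 markers 9 were tested, and 5 of them were higher at E18 and none lower, against 20.8% and 22.5% of all genes tested. One abundant gene made up most of these sums, and the other 10 markers summed to 103.9, 210.2 and 16.7 CPM in E18 replicates 1, 3 and 4 and to 20.2, 25.2 and 29.5 CPM in P5 replicates 6, 8 and 9. E18 replicate 3 thus had the most amacrine markers, E18 replicate 1 was also far above the P5 samples, and E18 replicate 4 was below them. Ezh2, Bmi1 and Suz12 fell in the same order of E18 samples (3, 1, 4) as this sum. Without E18 replicate 3, the log2 fold change was 1.39 for Ezh2 (adjusted p = 0.0179) and 0.43 for Bmi1 (0.0711). Markers of Müller glia and astrocytes summed to 502 to 604 and 477 to 514 CPM (2 of 10 tested were higher, 1 lower). Those of bipolar cells summed to 54.0 to 62.6 and 83.7 to 115 CPM (1 of 7 tested was higher, 3 lower). Endothelial and pericyte markers summed to 16.5 to 72.8 and 14.6 to 17.9 CPM (1 of 8 tested was higher, 3 lower). Photoreceptor markers summed to 4.19 to 12.9 and 4.17 to 5.73 CPM (3 of 10 tested were higher, 1 lower). Microglial markers summed to 4.91 to 5.35 and 3.64 to 3.74 CPM (1 of 9 tested was higher). One gene made up most of the endothelial and pericyte sums at E18. The other 8 markers summed to 1.677 to 3.243 CPM at E18, below the 6.562 to 9.855 CPM at P5. Without their most abundant gene, bipolar markers summed to 10.37 to 21.93 CPM at E18 and 18.93 to 25.64 CPM at P5. Microglial markers then summed to 2.417 to 3.303 and 1.805 to 2.477 CPM, and glial markers to 189.6 to 277.6 and 227.7 to 246.5 CPM. The ages overlapped for bipolar, microglial and glial markers. The part of these cells in the differences of the Polycomb genes was not tested.

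The remaining PRC2 subunits did not move in one direction. Of 7 genes, 2 were higher at E18 and 2 lower, with a median log2 fold change of 0.0091. Of all genes tested, 20.8% were higher and 22.5% lower, which made 43.4% called. The histone-binding subunits that PRC2 shares with other complexes changed in opposite directions, Rbbp4 from 244 ± 11.2 CPM at E18 to 203 ± 12.2 at P5 (SD, n = 3 each, log2 fold change 0.27, adjusted p = 0.0347) and Rbbp7 from 122 ± 3.35 to 171 ± 19.7 CPM (-0.49, adjusted p = 0.00565). Among the accessory Polycomb-like proteins, Mtf2 was higher at E18 (124 ± 7.45 against 91.4 ± 20.1 CPM, log2 fold change 0.45, adjusted p = 0.0405), Phf19 was lower at E18 and scarce at both ages (0.571 ± 0.108 against 1.04 ± 0.279 CPM, -0.87, adjusted p = 0.0451), and Phf1 was at 24.4 ± 3.96 and 24.2 ± 2.34 CPM. Aebp2, an accessory subunit, was at 57.3 ± 3.92 and 57.2 ± 11.6 CPM, and Epop, another, at 1.71 ± 0.438 and 0.858 ± 0.495 CPM (adjusted p = 0.0921). The call of Rbbp7 held in all 13 alternatives, whereas leaving out any sample other than P5 replicate 8 ended those of Rbbp4 (adjusted p up to 0.135), Mtf2 (up to 0.124) and Phf19 (up to 0.163).

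Of 21 other PRC1 genes, 10 were called, close to the 43.4% of all genes tested, with 6 higher at E18 and 4 lower and a median log2 fold change of 0.23. Phc2, a polyhomeotic subunit of canonical PRC1, was at 52.3 ± 4.59 and 27.6 ± 6.56 CPM (SD, n = 3 each, log2 fold change 0.92, adjusted p = 0.00282), and its relative Phc1 at 59.8 ± 4.03 and 36.7 ± 9.93 CPM (0.70, adjusted p = 0.0115). Pcgf1, the PCGF subunit of a variant PRC1, was at 16.8 ± 0.455 and 9.27 ± 0.228 CPM (log2 fold change 0.86, adjusted p = 0.000725), with little spread within either age. Cbx8, another CBX reader, was at 23.2 ± 0.830 and 13.2 ± 1.02 CPM (log2 fold change 0.81, adjusted p = 0.000904). The other genes higher at E18 were Bcor (0.65) and Auts2 (0.70), and those lower were Cbx6 (-0.64), Pcgf3 (-0.58), Yaf2 (-0.41) and L3mbtl2 (-0.38). These 6 are named after their values were seen. Phc1 lost its call without P5 replicate 6 (adjusted p = 0.0537), and the other 3 of the 4 genes with full values kept theirs in all 13 alternatives.

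The CBX genes thus differed among themselves. Cbx2 and Cbx8 were higher at E18, Cbx6 was lower at E18 (91.3 ± 7.81 against 142 ± 26.5 CPM, SD, n = 3 each, adjusted p = 0.00633), and Cbx7 was not called. Per length, Cbx6 was at 8.61 ± 0.736 CPM per kb at E18 and 13.4 ± 2.496 at P5, and Cbx8 at 6.31 ± 0.226 and 3.60 ± 0.278. Ring1, the alternative to Rnf2, was at 4.19 ± 0.289 and 3.99 ± 0.368 CPM per kb, far below the 50.7 and 34.7 CPM per kb of Rnf2.

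**Figure D5:**
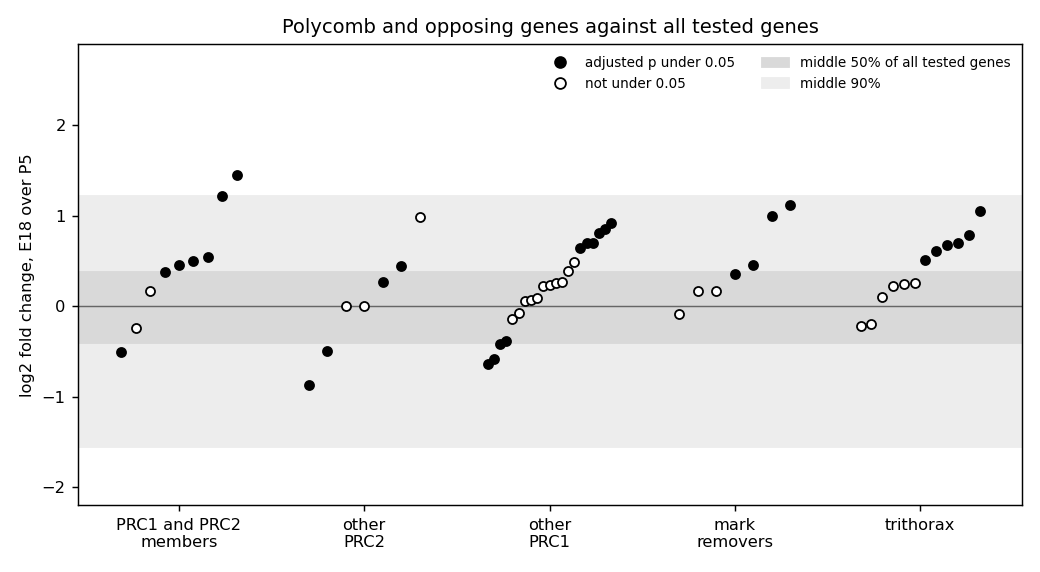
Log2 fold change of E18 over P5 (vertical) for each gene, ordered by value within each list. The lists are the Polycomb members, the other PRC2 and PRC1 genes, the enzymes that remove Polycomb marks with their partner subunits, and the trithorax group. Filled points have an adjusted p under 0.05. Shaded bands hold the middle 50% (-0.40 to 0.38) and 90% (-1.56 to 1.23) of all 16449 genes tested, and Ezh2 at 1.45 is the only point of these lists outside the wider band, with Cbx2 at 1.22 on its edge.

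Some of the genes for enzymes that remove the Polycomb marks, or for partner subunits of these enzymes, were also higher at E18. Of 7 such genes, 4 were higher and none lower, with a median log2 fold change of 0.36. Of all genes tested, 20.8% were higher and 43.4% were called. Kdm6b, an H3K27 demethylase, was at 12.2 ± 1.82 CPM in the E18 and 5.59 ± 1.17 CPM in the P5 samples (SD, n = 3 each, log2 fold change 1.12, adjusted p = 0.00250), while its relative Kdm6a was at 75.8 ± 5.61 and 67.3 ± 6.56 CPM (0.17, adjusted p = 0.210). In the complex that takes ubiquitin off H2A, Asxl3 was at 78.9 ± 4.41 and 39.3 ± 9.42 CPM (log2 fold change 1.00, adjusted p = 0.00185), Asxl1 at 73.0 ± 5.52 and 53.2 ± 9.07 CPM (0.46, adjusted p = 0.0216), and the enzyme itself, Bap1, at 168 ± 2.02 and 131 ± 17.2 CPM (0.36, adjusted p = 0.0232). Asxl2 (-0.09) and the H2A deubiquitinase Usp16 (0.17) were not called. The call of Asxl1 was lost without E18 replicate 1 or 3 or P5 replicate 6 or 9 (adjusted p up to 0.0844), and that of Bap1 in the same fits and without E18 replicate 4 (up to 0.0792), whereas Kdm6b and Asxl3 were called in all 13 alternatives.

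Trithorax enzymes of the KMT2 and SETD1 families methylate lysine 4 of histone H3 and keep genes active. All 6 large methyltransferases of the KMT2 and SETD1 families were higher at E18, and none of the other 6 genes of this list was called, which made 6 of 12 against 43.4% of all genes tested. The largest change was that of Kmt2d, at 33.2 ± 8.62 and 16.0 ± 2.07 CPM (SD, n = 3 each, log2 fold change 1.05, adjusted p = 0.00313). Setd1a was at 31.0 ± 2.14 and 17.98 ± 4.37 CPM (0.79, adjusted p = 0.00673), Kmt2b at 44.4 ± 2.92 and 27.3 ± 4.95 CPM (0.70, adjusted p = 0.00447) and Setd1b at 4.89 ± 0.692 and 3.06 ± 0.810 CPM (0.68, adjusted p = 0.0424). The median of the 12 genes was 0.38, and Setd1b lost its call without E18 replicate 1 (adjusted p = 0.0913), E18 replicate 3 (0.150), P5 replicate 6 (0.132) or P5 replicate 9 (0.109) and with library totals only (0.0520).

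Textbook targets of Polycomb were mostly silent at both ages. None of the 39 Hox genes had enough reads to be tested, and 19 had no read in any sample, which allows up to 0.0362 CPM (3 reads) in the shallowest library. The highest value of any Hox gene was 0.0844 CPM, for Hoxd1 in E18 replicate 1, a gene named after its value was seen. Among 20 other targets, 3 were tested, 4 had no read in any sample and 2 exceeded 1 CPM. The CDK inhibitor Cdkn1c (p57) was at 59.6, 57.2 and 60.5 CPM in E18 replicates 1, 3 and 4 and at 6.81, 8.00 and 9.31 CPM in P5 replicates 6, 8 and 9. All E18 samples were far above all P5 samples, with a log2 fold change of 2.88 (SE 0.132, adjusted p = 2.05e-05) that was called in all 13 alternatives. Tbx5, a T-box factor, was at 2.80 ± 0.705 and 3.12 ± 0.681 CPM (SD, n = 3 each, adjusted p = 0.635). The CDK inhibitor Cdkn2b had 16, 10 and 5 reads at E18 and 0, 2 and 0 at P5, too few to be tested with the expression filter. Tbx5 and Cdkn2b are named after their values were seen.

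Reads of some members could be shared with genes on the opposite strand, as it is not stated whether the counting used strand. Merged exons overlapped those of an opposite gene over 6.82% of the length for Eed, 3.83% for Rnf2, 3.60% for Suz12, 2.61% for Ezh2 and 1.54% for Cbx7, and not for Ezh1, Jarid2, Cbx2 or Bmi1.

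Genes with profiles most like those of the PRC2 enzymes were found by the root mean square difference of mean-centred log2 CPM over the 6 samples, among 11029 genes that averaged at least 5 CPM. Nearest to Ezh1 were Ubl4 (0.0260), Tmem62 (0.0304) and Fbxw2 (0.0327). Nearest to Ezh2 were Gab1 (0.0807), Carhsp1 (0.0860) and Clic4 (0.0912). In each of these 3 genes, as in Ezh2, P5 replicate 8 was the highest and P5 replicate 9 the lowest of the P5 samples. They were picked for likeness over these same samples, so the shared order follows from the choice. Gab1, an adaptor of receptor tyrosine kinases, was at 22.6, 23.8 and 21.1 CPM at E18 and 7.30, 12.6 and 4.59 CPM at P5.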

How the data were processed

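RNA-seq of immunopanned RGCs was compared between 3 E18 and 3 P5 samples, grouped by their labels. The authors sequenced paired-end reads after RiboZero Gold depletion, mapped them with STAR 2.4.0 on mm10 and obtained counts of RefSeq genes with HT-seq 0.6.1. CASAVA 1.8.2 and edgeR are named in the submitters' processing notes. The deposited values used here are raw counts per gene. The deposited table also holds normalized counts, a signal scaled by the authors for library size, and the authors' own comparison as log2 fold changes, p-values with false discovery rates and a rank score, none of which was used.

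After TMM scaling, the counts entered a quasi-likelihood test in edgeR 4.0.16 (R 4.3.3) over all 16449 genes that passed its expression filter, with no covariate and Benjamini-Hochberg adjustment, and a gene was called at an adjusted p under 0.05. SEs were derived from the coefficient and F statistic of that fit, and 95% intervals from these SEs with a t quantile. Total counts were 81213639 to 114512853 per sample. Within an age the samples differed beyond sampling noise (chi-square of 30.7 to 142 per degree of freedom), so the spread between samples sets the precision. On counts simulated for 16300 genes, the test recovered 118 of 200 genes (59%) changed 2-fold, with 8 false calls. The share of changed genes there was far below the 43.4% called in the data. Benjamini-Hochberg adjustment depends on that share, so the 59% is not the sensitivity of this comparison.

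Exon lengths and coordinates are from the GENCODE annotation of mm10, and promoters from RefSeq on GRCm38.p6. Ratios were tested by exact permutation over samples (SciPy 1.17.1). Floors of 3 reads cover counting error only. The alternatives were DESeq2 1.42.0, other edgeR tests, scalings and filters, other lengths and the omission of each sample. Named in each other list were up to 4 called genes with the largest change and all genes of lists of 8 or fewer, and for Ezh1 and Ezh2 the 3 genes nearest in profile. Some single genes of the lists are not reported here by name. The members, the lists, the marker genes and the promoter words were chosen with earlier results of these data known.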

Additional observations from a re-analysis of the deposited data

How the results depend on the processing

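Under the 7 alternatives that kept all samples, the number of members called was 6 or 7, the lists of other PRC2, other PRC1, mark-removing and trithorax genes kept counts within 1.5 times of those reported, and no Hox gene was called. The other Polycomb targets rose from 1 call to 2 with DESeq2 and to 2 with no expression filter, where Cdkn2b was added. Leaving out 1 sample at a time gave 3 (without E18 replicate 3) to 7 members, 1 to 5 other PRC2 genes, 7 to 15 other PRC1 genes, 2 to 5 mark-removing genes, 4 to 9 trithorax genes, 1 other target in each case, and 4575 (without E18 replicate 3) to 8796 (without P5 replicate 8) of all genes. In each such fit the remaining samples are fewer, and the age with 2 samples has less to estimate its spread. With single samples left out, the log2 difference of the ratios was 1.70 to 2.36 for Ezh2 to Ezh1 and 1.32 to 1.68 for Cbx2 to Cbx7.

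Among the 32 genes fitted one by one under each alternative, which leave out the genes named after their values were seen and the markers, changes of sign occurred only for Aebp2 and Phf1, whose log2 fold changes were close to 0. Aebp2 was at -0.0222 with library totals only, at -0.0049 with a filter of 1 CPM in 3 samples, and at -0.12 to 0.16 without single samples. Phf1 was at -0.0172 with library totals only and at -0.11 to 0.13 without single samples. Other single genes that lost their call in fits with all samples were Eed and Setd1b with library totals only and Phf19 with upper-quartile scaling, and Epop was called with DESeq2 (adjusted p = 0.0434). The cause was not tested. The length alternatives rescale every sample alike and cannot change the difference between the ages, and the RefSeq-matched transcript and the ranks under other lengths were added after seeing the data. No paired analysis was possible because the replicate numbers of E18 (1, 3 and 4) and of P5 (6, 8 and 9) share none. With 3 samples per age, the permutation tests cannot pass 0.05.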

Other observations

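The P5 samples fell in one order for most of the Polycomb members. P5 replicate 8 was highest, replicate 6 intermediate and replicate 9 lowest for 6 of the 9 members (Ezh1, Ezh2, Eed, Cbx2, Bmi1 and Rnf2), and for 16 of the 37 PRC1 and PRC2 genes tested. Of all 16449 genes tested 22.2% had this order, and of the 3426 genes higher at E18 44.2% had it. The summed dividing cell markers had it too, at 81.9, 94.6 and 74.5 CPM in P5 replicates 6, 8 and 9. So did the summed progenitor markers, at 32.9, 39.0 and 25.7 CPM. Among the 6 members, Ezh1 differed by only 1.05-fold between its highest and lowest P5 sample, against 2.63-fold for Ezh2 and 2.001-fold for Cbx2. The order was noticed in these values and was not tested.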
